A study of Mus musculus with 58 samples.

Results

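The genes Cfap54, Tdg, Gm9855, Gm15920 and Gm44677 were chosen by their behaviour in the striatum of the 16p11.2 line, where del/+ and wt females differed in them. They are 5 of 54532 genes listed in the RNA-seq tables, and Cfap54 and Tdg are also 2 of the 18411 genes listed in a second set of tables from striatal lysate. The question for each gene was how high it was in every library, how many separate levels the libraries formed, and whether those levels went with the genotype, with the line or with neither. Because the 16p11.2 female comparison picked the genes, its values are given as a description, as are other values of the same libraries, and the tests read are those of males, of the other line and of the other assays.

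Cfap54 encodes a protein of the central apparatus of motile cilia, the beating cilia that ependymal cells carry on the walls of the brain ventricles. Tdg encodes thymine DNA glycosylase, a base excision repair enzyme that removes thymine from mismatches with guanine and also removes oxidized forms of methylcytosine made by the TET enzymes, which makes it part of active DNA demethylation. Gm9855 and Gm15920 are copies without a known protein product: RefSeq names them Tdg-ps2 and Ndufa12-ps, pseudogenes of Tdg and of Ndufa12, a gene for a subunit of respiratory complex I. A processed pseudogene is a copy of a transcript inserted elsewhere in the genome, and reads from such a copy and from its parent are hard to tell apart. Gm44677 is a gene model with no assigned function.

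The 3g del/+ mice carry premature stops made with CRISPR/Cas9 in Taok2, Sez6l2 and Mvp in the same animal, and were made from zygotes with C57BL/6J males. The 16p11.2 del/+ mice are heterozygous for a deletion of the matching region on chromosome 7 and came from a commercial supplier. All animals are given strain B6129S in the labels, and wt animals are littermates without the edits or the deletion. Striatal RNA was sequenced from 32 mice 10 to 14 weeks old, 4 from every group defined by line, sex and genotype. From other male mice, of unstated age, lysate RNA and ribosome footprints (the fragments of RNA that ribosomes protect) were sequenced from the same lysates in 13 animals, 3 del/+ and 4 wt of the 16p11.2 line and 3 del/+ and 3 wt of the 3g line. Nothing in the labels says whether the libraries of a group came from separate litters, so p-values measure the spread between these animals.

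RNA-seq libraries held 11711099 to 65529807 counts, lysate RNA libraries 15102576 to 19122488 and footprint libraries 342052 to 678130. Taok2, one of the genes in the deleted region, was at 83.2 to 94.9 CPM (counts divided by the normalized library size, scaled to the same total in each library) in 16p11.2 del/+ and 153 to 196 in 16p11.2 wt RNA-seq libraries, without overlap. Sez6l2 was at 189 to 225 CPM in 3g del/+ and 274 to 336 in 3g wt libraries, while Taok2 (156 to 197 and 176 to 182 CPM) and Mvp (5.17 to 7.45 and 7.20 to 8.84 CPM) overlapped between these. Striatal genes were abundant (Ppp1r1b, which encodes DARPP-32, at 971 to 1845 CPM), while Foxj1, the master regulator of motile cilia, was at 2.34 to 9.55 CPM and Ccdc153, an ependymal marker, at 0 to 4.37. In bulk tissue fewer cells of a type and less RNA per cell cannot be told apart. In all, 3 libraries went against their labels or stood apart. Xist was at 0.462 and the Y-linked gene Ddx3y at 38.5 CPM in the library labelled 16p11.2 del/+ female 1, where the other libraries labelled female had at least 326 CPM of Xist and no Ddx3y. On a scale from 0 (mean of the 3g wt females) to 1 (mean of the 16p11.2 wt females), 3g wt male 17 was at 0.849, with the other 3g libraries at -0.08 to 0.174, and 16p11.2 del/+ male 4 was at 0.211, with the other 16p11.2 libraries at 0.818 to 1.25. Values without these libraries are given beside some of the results that rest on them, not all. Correlations between genes were not repeated without them.

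On GRCm38, Cfap54 (ENSMUSG00000020014) spans bases 92775609 to 93083487 of chromosome 10, and Tdg (ENSMUSG00000034674) lies 10.1 Mb away at 82629814 to 82650799. Gm9855 (ENSMUSG00000085666) is on the same chromosome, 50.7 Mb from Cfap54, at 42052558 to 42055453. Gm15920 (ENSMUSG00000080893) is on chromosome 5 at 130188393 to 130188888, but its parent Ndufa12 is on chromosome 10 at 94199035 to 94221440, 1.42 Mb from Cfap54. The RefSeq table used here gives no position for Gm44677 (ENSMUSG00000109505). Of the 5 genes, 3 therefore lie on chromosome 10 and 1 more is a copy of a gene there, and none of the 4 with a position lies on chromosome 7, which carries the deletion. The comparison that selected them also called 18 genes of chromosome 7 lower in del/+, which were not taken into this set. Nothing is therefore read from the absence of chromosome 7 here.

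In 16p11.2 females, 4 of the 5 genes were higher and Tdg was lower in del/+. Cfap54 was at 3.57, 3.36, 3.19 and 3.53 CPM in the 4 wt libraries and at 13.5, 8.40, 7.85 and 11.6 CPM in the 4 del/+ libraries. Tdg was at 23.7, 21, 22.7 and 25.3 CPM in wt and at 14.8, 16.0, 16.9 and 16.2 CPM in del/+. In both genes every del/+ female fell on one side of every wt female, and for Tdg the gap was the narrower. Nothing is read from this separation, since these libraries selected the genes.

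The copies and Gm44677 were close to 0 in the wt females. Gm9855 had 3, 1, 0 and 2 reads in the 4 wt libraries, or 0.0775, 0.0409, 0 and 0.0519 CPM, against 2.99, 2.95, 3.39 and 3.14 CPM in del/+. Gm15920 was at 0.388, 0.409, 0.488 and 0.312 CPM in wt and at 8.62, 12.1, 13.6 and 10.7 CPM in del/+. Gm44677 was at 0.0517, 0.0819, 0 and 0.0519 CPM in wt and at 1.01, 0.417, 0.535 and 0.778 CPM in del/+.

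The quasi-likelihood test of edgeR, run over the whole table, called 26 of 18067 genes at a Benjamini-Hochberg adjusted p under 0.05 in this comparison (0.144%), 6 of them higher in del/+. The 5 genes, which this comparison selected, were among the 26. Their log2 differences (del/+ minus wt) were 1.60 (SE 0.18) for Cfap54, -0.54 (SE 0.081) for Tdg, 5.99 (SE 0.35) for Gm9855, 4.81 (SE 0.199) for Gm15920 and 3.82 (SE 0.545) for Gm44677, where the values of Gm9855 and Gm44677 depend on the prior count because wt libraries had few or no reads. At the edge of the selection, Bola2 was inside with an adjusted p of 0.0491 and Gm21984 outside with 0.0592. Without del/+ female 1, Gm44677 and Tdg had adjusted p of 0.0559 and 0.0977. With all 16 libraries of the line in 1 edgeR fit none of the 5 was called, and the lowest adjusted p was 0.0635, for Gm15920.

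**Figure D1:**
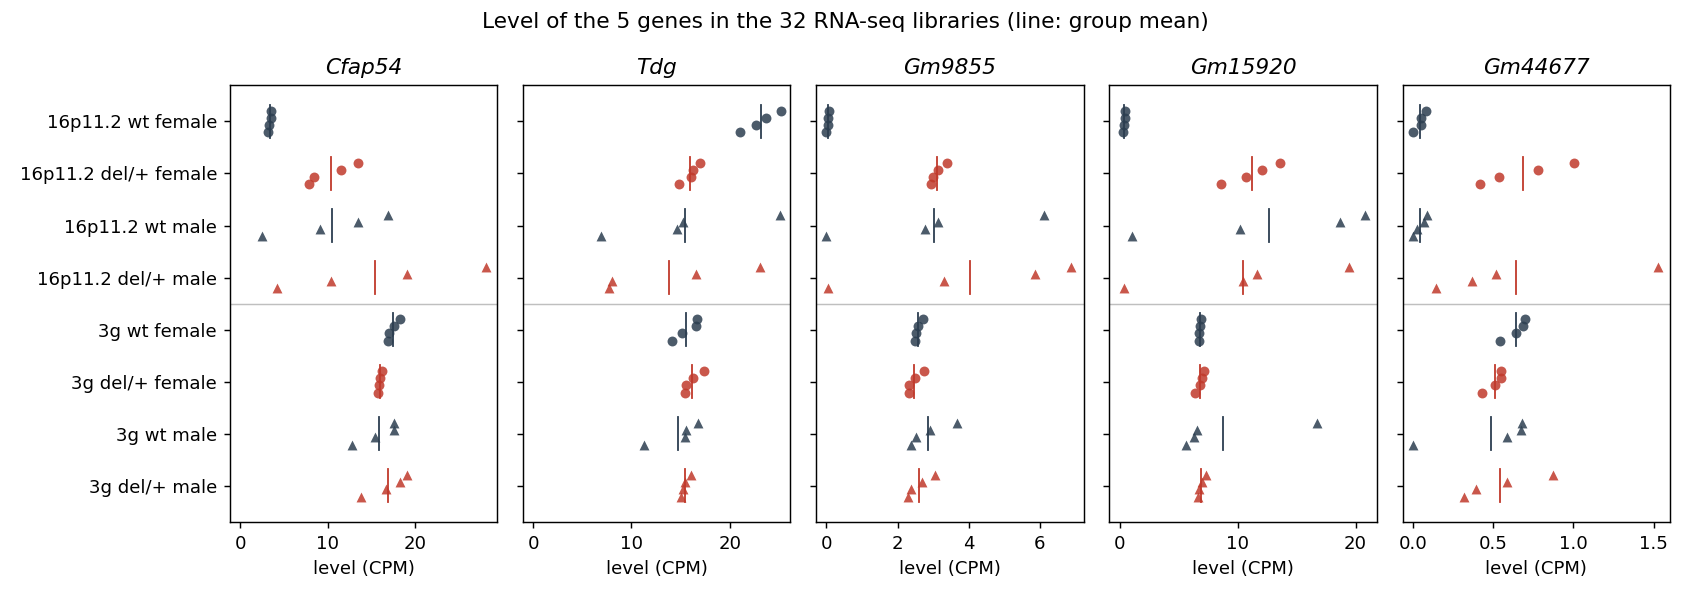
Level of each gene in every RNA-seq library (CPM, 1 panel a gene, 1 point a library), by line, sex and genotype, with the group mean as a line. The 16p11.2 wt females lie together at 3.19 to 3.57 CPM of Cfap54, the 16p11.2 males of both genotypes spread from 2.56 to 28.1 CPM, and the 3g libraries lie at 12.8 to 19.0 CPM.

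In 16p11.2 males the levels were as far apart within a genotype as between genotypes. Cfap54 was at 13.5, 9.15, 16.9 and 2.56 CPM in wt males 1 to 4 and at 4.22, 19.1, 10.4 and 28.1 CPM in del/+ males 1 to 4. Wt male 4 and del/+ male 1 were close to the level of the wt females, and the other 6 males were in or above the range of the del/+ females. Tdg was at 15.2, 14.6, 6.94 and 25.1 CPM in wt males and at 23.1, 7.70, 16.6 and 8.0 CPM in del/+ males. The males with the highest Tdg were the ones with the lowest Cfap54, and wt male 3, del/+ male 2 and del/+ male 4, with the lowest Tdg, had the highest Cfap54.

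The copies fell in the same animals. Gm9855 was at 3.15, 2.78, 6.12 and 0 CPM in wt males and at 0.0367, 6.89, 3.29 and 5.88 CPM in del/+ males. Gm15920 was at 20.8, 10.2, 18.7 and 1.02 CPM in wt males and at 0.367, 19.4, 10.5 and 11.7 CPM in del/+ males. Both copies were lowest in wt male 4 and del/+ male 1, and both genotypes reached the highest levels.

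Of the 4 genes that passed the filter on low counts in males, edgeR called 0, where it called 0.106% of all genes tested, and 0 had an unadjusted p under 0.05, while DESeq2 called Gm44677 alone. The log2 differences were 0.56 (SE 0.579, adjusted p = 0.816) for Cfap54, -0.16 (SE 0.413) for Tdg, 0.44 (SE 1.01) for Gm9855 and -0.26 (SE 0.864) for Gm15920. Exact permutation tests of the male log2 levels, added after seeing the data (2-sided, 4 against 4, smallest possible p = 0.0286) gave p = 0.514 for Cfap54, 0.886 for Tdg, 0.514 for Gm9855 and 0.657 for Gm15920. The differences in males were therefore within the spread between animals of 1 genotype. Without del/+ male 4 the log2 difference of Cfap54 by group means was 0.14 (exact permutation p = 0.857).

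The interaction of genotype and sex over the 16 libraries of the line called 0% of 18870 genes by edgeR, with 818 at an unadjusted p under 0.05 and 3 by DESeq2. It was not read for the 5 genes, since it uses the libraries that selected them and includes del/+ female 1, whose Xist and Ddx3y go against its label.

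In the 16p11.2 line Gm44677 was higher in del/+ than in wt libraries of both sexes, but del/+ male 1, with 4 reads, was close to the wt libraries. The 4 wt males were at 0.0851, 0.0264, 0 and 0.0683 CPM and the 4 del/+ males at 0.147, 0.369, 0.517 and 1.53 CPM. Every del/+ library of the line was above every wt library. Genotypes did not overlap, in either direction, for 36 of the 18870 genes tested (0.191%), from which nothing is read for Gm44677, since 8 of the 16 libraries selected it. In the males, which the selection did not use, the mean log2 level was 3.31 higher in del/+ (2-sided exact permutation p = 0.0286, the smallest that 4 against 4 allows, unadjusted for the 10 such tests made in males of both lines), and 2.74 higher without del/+ male 4 (p = 0.0286). The counts were low, 0 to 3 reads in a wt library of the line, and edgeR's filter left the gene out of the male fit. DESeq2, which kept it, gave a log2 difference of 3.84 (adjusted p = 0.0179), and edgeR without the filter gave 3.72 (adjusted p = 0.0479).

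Levels were counted by sorting the libraries of a line and starting a new level at each step of more than 2-fold, with 0.5 counts added. In the 16p11.2 RNA-seq libraries Gm9855, Gm15920 and Gm44677 had 3 levels each and Cfap54 and Tdg 1, so that 3 of 5 had 2 or more, against 5.72% of all genes tested. The selection itself favours genes with steps in this line. With 3 counts added, Gm9855 and Gm15920 had 2 levels and the other 3 genes 1, with and without del/+ female 1 and del/+ male 4. The 2-fold rule splits libraries with 0 and 1 to 3 reads, and does not count narrower steps. A step of 1.5-fold with 3 counts added was a looser rule, chosen after seeing the data. By it 2405 of all 18870 genes tested had 2 or more levels. Cfap54 then had 2 levels. The low one held 6 libraries at 2.56 to 4.22 CPM (the 4 wt females, wt male 4 and del/+ male 1) and the high one 10 at 7.85 to 28.1. Tdg then had 2 levels as well, 3 libraries at 6.94 to 8.0 CPM (wt male 3, del/+ male 2 and del/+ male 4) and 13 at 14.6 to 25.3. Gm9855 had 3 levels that combined both splits, with the same 6 libraries at 0 to 0.0775 CPM, 7 at 2.78 to 3.39 and the same 3 libraries at 5.88 to 6.89. Gm15920 had 5 of the 6 at 0.312 to 0.488 CPM, wt male 4 alone at 1.02 and 10 libraries at 8.62 to 20.8. Gm44677 had 2 levels of another make-up, with del/+ male 1 beside the 8 wt libraries at 0 to 0.147 CPM and the other 7 del/+ libraries at 0.369 to 1.53.

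Because a copy and its parent can exchange reads, the share of the copy among the reads of both was also taken, with a Wilson 95% interval that covers counting error only. For Gm9855 and Tdg the share was 0 to 0.326% in the 6 libraries of the lowest level. In wt female 3 it was 0 of 698 reads, which allows a share of up to 0.43%, and in wt male 4 it was 0 of 735, which allows up to 0.408%. It was 15.5% to 17.1% in 7 libraries (the 4 del/+ females, del/+ male 3 and wt males 1 and 2). It was 42.4% in del/+ male 4 (38.1 to 46.8), 46.9% in wt male 3 (42.1 to 51.8) and 47.2% in del/+ male 2 (43.2 to 51.2). The intervals of the 3 bands did not overlap, and wt and del/+ libraries were found in each.

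The reads of Gm9855 and Tdg together were 21.1 to 25.3 CPM in the 6 libraries with the lowest share, 17.4 to 20.3 CPM in the 7 with the middle share and 13.1 to 14.6 CPM in the 3 with the highest. Tdg was thus lower from band to band by more than the copy was higher, and the sum stepped down with it.

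For Gm15920 and Ndufa12 the share was 0.51% to 1.35% in the same 6 libraries. It was 13.1% to 15.5% in the 4 del/+ females, del/+ male 3 and wt male 2, and 23.4% to 27.1% in del/+ males 2 and 4 and wt males 1 and 3. Wt male 1 was the library that changed place, in the middle band for Gm9855 at 17.1% and in the high band for Gm15920 at 25.4% (23.8 to 27.0). The other 15 libraries of the line were in the same band for both copies. The reads of Gm15920 and Ndufa12 together overlapped between the bands, at 59.5 to 76.5, 65.7 to 91.4 and 49.7 to 81.9 CPM.

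**Figure D2:**
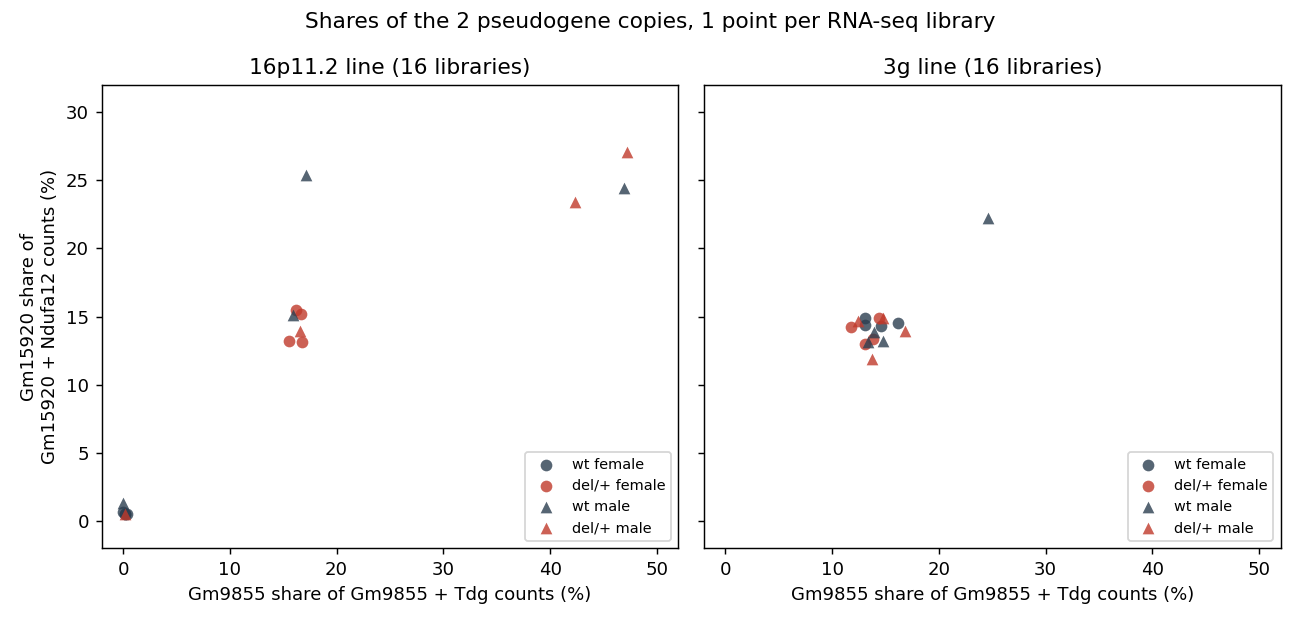
Share of the copy among the reads of copy and parent (%), for Gm9855 with Tdg on the horizontal and Gm15920 with Ndufa12 on the vertical axis, 1 point a library and 1 panel a line. The 16p11.2 libraries form 3 bands that both genotypes occupy, and 16p11.2 wt male 1 stands apart at 17.1% and 25.4%. The 3g libraries lie together except for wt male 17 at 24.6% and 22.2%.

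The 3g libraries did not show these bands. Cfap54 was at 12.8 to 19.0 CPM in the 16 libraries of the line, Tdg at 11.3 to 17.4 and Gm9855 at 2.29 to 3.68. Gm15920 was at 5.62 to 7.35 CPM and Gm44677 at 0.318 to 0.876 CPM in 15 libraries, while 3g wt male 17 had 16.7 CPM of Gm15920 and 0 of Gm44677. With the 2-fold rule these 2 genes had 2 levels in the line and the other 3 had 1, against 6.13% of all genes with 2 or more. Without 3g wt male 17, and with 3 counts added, none of the 5 had more than 1. The share of Gm9855 was 11.7% to 16.8% and that of Gm15920 11.9% to 14.9% in 15 libraries, and both were higher in 3g wt male 17, at 24.6% (21.2 to 28.3) and 22.2% (20.7 to 23.8).

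In RNA-seq, no difference between del/+ and wt animals of the 3g line passed the edgeR test in any of the 5 genes. In females edgeR called 0 of the 5, where it called 0.00526% of all genes, with 1 of the 5 at an unadjusted p under 0.05 and 0 by DESeq2. That gene was Cfap54, with a log2 difference of -0.13 (SE 0.0468, adjusted p = 0.354). In males edgeR called 0 of the 5 and 0% of all 19081 genes, with 274 genes at an unadjusted p under 0.05, 0 of them among the 5, and 1 gene called by DESeq2, which was none of the 5. Across both sexes exact permutation tests (labels permuted within sex, 2-sided) gave p = 0.858 for Cfap54, 0.427 for Tdg, 0.32 for Gm9855, 0.976 for Gm15920 and 0.957 for Gm44677. Without 3g wt male 17, Gm15920 was 0.09 higher in del/+ on the log2 scale (exact permutation p = 0.0359, unadjusted) and Gm44677 0.31 lower (p = 0.115), both with the sign turned. With the sexes pooled, no gene of the 5 separated the genotypes, which 0.0706% of all genes did. In females alone Cfap54 did, at 15.7 to 16.2 CPM in del/+ and 16.9 to 18.2 CPM in wt. The share of all genes that did so in females alone is not given, so nothing is read from this separation. In the 3g female comparison 2098 of 19024 genes had an unadjusted p under 0.05 by edgeR. The interaction of genotype and sex in edgeR called 0 of the 5 and 0% of 19830 genes, with 533 at an unadjusted p under 0.05 and 0 by DESeq2.

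The 16p11.2 wt females, whose values selected the genes, were also far from the 3g wt females, which is given as a description. Relative to 3g wt females the log2 differences were -2.36 for Cfap54, -5.76 for Gm9855, -4.11 for Gm15920 and -3.76 for Gm44677, and 0.56 for Tdg. In this comparison edgeR called 59.9% of all 19013 genes. The counts of each line were made separately, so line and that making cannot be told apart in comparisons between the lines. In wt males, 0 of the 4 genes tested were called, against 0.0162% of all genes, and 0 had an unadjusted p under 0.05, where 6708 of 18561 genes had an unadjusted p under 0.05 by edgeR and 3502 were called by DESeq2. Without 3g wt male 17 the log2 differences were -0.70 for Cfap54 (adjusted p = 0.232), -0.059 for Tdg, 0.19 for Gm9855 and 1.03 for Gm15920, and none of the 4 was called. Gm44677, which did not pass the filter there, was at 0 to 0.0851 CPM in the 16p11.2 wt males and at 0.584 to 0.681 CPM in the 3g wt males other than male 17, at 0. DESeq2 gave it a log2 difference of -3.46 (adjusted p = 0.0177) over all 8 libraries.

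**Figure D3:**
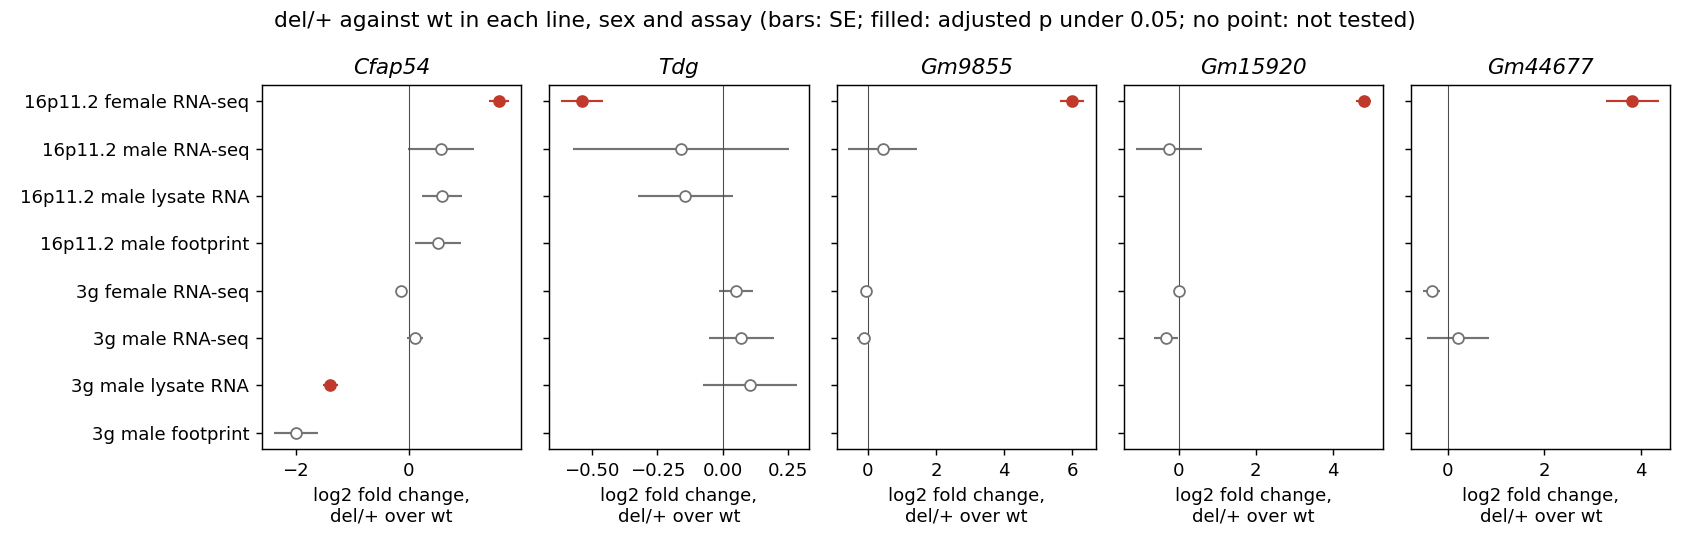
Log2 difference between del/+ and wt for each gene in each line, sex and assay (points, edgeR), with standard errors as bars and filled points where the adjusted p was under 0.05. In 16p11.2 females, whose values selected the genes, the differences run from -0.54 for Tdg to 5.99 for Gm9855. In the RNA-seq of 16p11.2 males and of the 3g line the values for Cfap54 lie between -0.13 and 0.56. In lysate RNA Cfap54 is at 0.58 in the 16p11.2 line and at -1.39 (filled) in the 3g line, and in footprints at 0.52 and -2.0.

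In the lysate of other male mice of the 3g line, Cfap54 was lower in del/+ animals, which was not called in the RNA-seq of that line. The 3 del/+ animals were at 21.9, 18.6 and 15.3 CPM of lysate RNA, and the 3 wt animals were at 52, 50.9 and 44.1 CPM. All del/+ animals were below all wt animals, and 9.65% of genes in this table of 3 against 3 separated the genotypes in either direction. The log2 difference was -1.39 (SE 0.132), or 2.63-fold lower, with an adjusted p of 6.03e-04 by edgeR. Cfap54 was the first of all genes by p and 1 of 3 called (0.0209%), and the adjusted p stayed between 3.44e-04 and 0.0133 when each animal was left out in turn. An exact permutation test on the single gene gave p = 0.1, the smallest that 3 against 3 allows.

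The footprints of the same animals gave a difference in the same direction on few reads. In the same order, the del/+ animals had 7, 10 and 5 Cfap54 footprints (13.3, 12.9 and 7.61 CPM), and the wt animals had 18, 22 and 18 (43.1, 50.8 and 42.6 CPM). The genotypes did not overlap, as for 13.3% of genes in the table in either direction. The log2 difference was -2.0 (SE 0.391) with an adjusted p of 0.0917, so edgeR called 0 of 1 member tested, where it called 0.0132% of genes. The unadjusted p was under 0.05, and DESeq2 called 0. Without the filter on low counts the difference was -1.93 with an adjusted p of 0.00326.

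In the 16p11.2 lysate the level of Cfap54 did not go with the genotype. The 3 del/+ animals were at 96.8, 74.0 and 56.5 CPM, and the 4 wt animals were at 16.1, 59.0, 54.8 and 73.5 CPM. The wt animal at 16.1 CPM stood apart below the other 6, whose genotypes overlapped. The footprints repeated this, with 2 reads in that wt animal (6.25 CPM) and 11 to 19 reads in the other 6 (30.4 to 59.1 CPM). The log2 difference was 0.58 (SE 0.357, adjusted p = 0.99 by edgeR, exact permutation p = 0.314) in lysate RNA and 0.52 (SE 0.405, adjusted p = 0.92) in footprints, and 0.28 and 0.23 without it. Here edgeR called 0 of 2 members in lysate RNA (0.133% of all genes) and 0 of 1 in footprints (0.117%), with 0 at an unadjusted p under 0.05 and 0 by DESeq2 in each.

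By the 2-fold rule Cfap54 had 2 levels in each of the 4 tables of lysate RNA and footprints. The share of genes with 2 or more levels was 2.9% and 2.43% in lysate RNA of the 16p11.2 and the 3g line, and 6.12% and 8.42% in their footprints. In the 16p11.2 line the low level was 1 wt animal, and in the 3g line it was the 3 del/+ animals. No member separated the genotypes in the 16p11.2 tables, which 5.71% of genes did in lysate RNA and 6.69% in footprints. In units of CPM within the lysate table, the low 16p11.2 wt animal and the 3g del/+ animals lay at 15.3 to 21.9 and the other 9 animals at 44.1 to 96.8.

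A test of whether the effect of genotype differed between the lines was added after seeing the data. The interaction for Cfap54 was -1.98 on the log2 scale (3g minus 16p11.2, SE 0.461, adjusted p = 0.221) in lysate RNA, where edgeR called 0 of 2 members and 0.122% of genes. It was -2.52 (SE 0.601, adjusted p = 0.0812) in footprints, where it called 0 of 1 and 0.169%. A difference between the lines was thus not called, except in footprints without the filter, at -2.42 with an adjusted p of 0.00871. In both assays the unadjusted p of Cfap54 was under 0.05, and DESeq2 called 0. Between wt animals of the lines, edgeR called 0 of 2 members in lysate RNA, against 0.0139% of genes, with 0 at an unadjusted p under 0.05 and 0 by DESeq2.

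**Figure D4:**
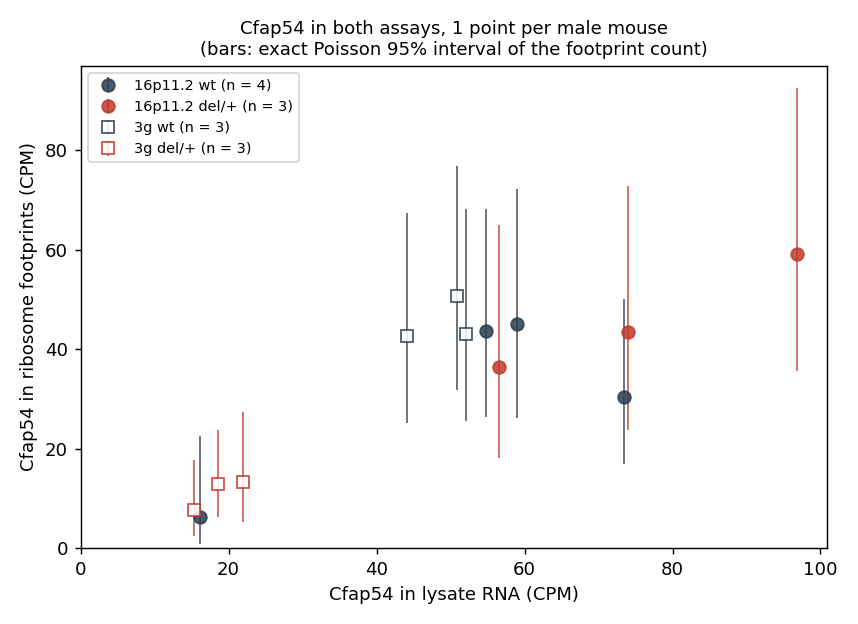
Cfap54 in lysate RNA (horizontal axis, CPM) and in ribosome footprints (vertical axis, CPM with exact Poisson 95% intervals) of each of the 13 male mice. The 3g del/+ animals and 1 16p11.2 wt animal lie at the lower left, at 15.3 to 21.9 CPM of lysate RNA, apart from the other 9 animals at 44.1 or more.

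Tdg did not step in the lysate tables. It was at 4.81 to 7.57 CPM in 16p11.2 and 6.22 to 10.2 CPM in 3g lysate RNA, with overlapping genotypes and log2 differences of -0.14 and 0.10. It had 0 to 8 reads in a footprint library, too few to show steps of the size seen in RNA-seq, and its 2 levels in the 16p11.2 footprints came from 1 library without a read. Gm9855, Gm15920 and Gm44677 are not listed in these tables, so the reads of a copy could not be compared with those of its parent there.

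With all libraries of each line included, the genes whose levels were most like each member differed between the lines. Over the 16 libraries of the 16p11.2 line, the 5 genes most like Cfap54 in log2 level were Gm9855 (Pearson's r = 0.94, Spearman's rho = 0.88), Gm4924 (r = 0.91, rho = 0.88), Tdg (r = -0.90, rho = -0.89), Cep83os (r = -0.89, rho = -0.84) and Gm15920 (r = 0.88, rho = 0.71). Gm4924 lies 10.4 Mb from Cfap54 and Cep83os 1.9 Mb from it, both on chromosome 10. In the 3g line, the 5 most like Cfap54 were 6430590A07Rik (r = 0.90, rho = 0.82), Zswim4, Iqsec1, Dync2h1 and Nfic, of which Nfic alone is on chromosome 10. Of the 5 most like Tdg there, Gm45124 has no known position and the others lie on other chromosomes than 10. Over all 32 libraries the gene most like Cfap54 was Gm9855 (r = 0.91, rho = 0.41), followed by Dlx1as of chromosome 2 (r = 0.86, rho = 0.85). Over all 32 libraries Gm9855 and Gm15920 were most like each other (r = 0.96, rho = 0.84), and the genes most like Tdg were Gm3055 (r = 0.91, rho = 0.69) and Cep83os (r = 0.90, rho = 0.71), both on chromosome 10. These are descriptions, since libraries at a few separate levels carry the values and share line and depth. In the 3g line, wt male 17 had the lowest Cfap54 and Tdg, at 12.8 and 11.3 CPM. In the 16p11.2 line, del/+ male 4 had the highest Cfap54, at 28.1 CPM. Both libraries stood apart from their line, and the correlations were not repeated without them. Whether the contrast between the lines rests on these libraries was therefore not tested.

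Large correlations with Cfap54 were more frequent near it in both lines, while the median correlation was similar near and far. In the 16p11.2 line 9 of 230 genes within 15 Mb of Cfap54 had an r of at least 0.7 in size (3.91%), against 4 of 459 elsewhere on chromosome 10 (0.871%) and 1.57% of all genes compared. In the 3g line the shares were 17.4%, 10.9% and 9.84%. The median size of r within and beyond 15 Mb was 0.32 and 0.29 in the 16p11.2 line. It was 0.43 in both places in the 3g line. These shares and medians were not repeated without 3g wt male 17 or 16p11.2 del/+ male 4. Tdg, a member selected in the 16p11.2 line, is among the genes within 15 Mb. For Gm44677, 33 of the 49 most similar genes with a known position in the 16p11.2 line were on chromosome 7, where 7.53% of all compared genes lie. The most similar were Kctd13 (r = -0.90, rho = -0.72) and Cdipt (r = -0.90, rho = -0.83), genes of the deleted region, and since Gm44677 was chosen for a difference by genotype in this line, likeness to deleted genes follows from the choice. Over all 32 libraries the nearest to Gm44677 were Gm45793 (r = 0.91, rho = 0.75), which has no position, and Rnf169 (r = 0.89, rho = 0.71), Me3 (r = -0.85, rho = -0.75) and Myo7a (r = 0.85, rho = 0.70), all on chromosome 7.

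**Figure D5:**
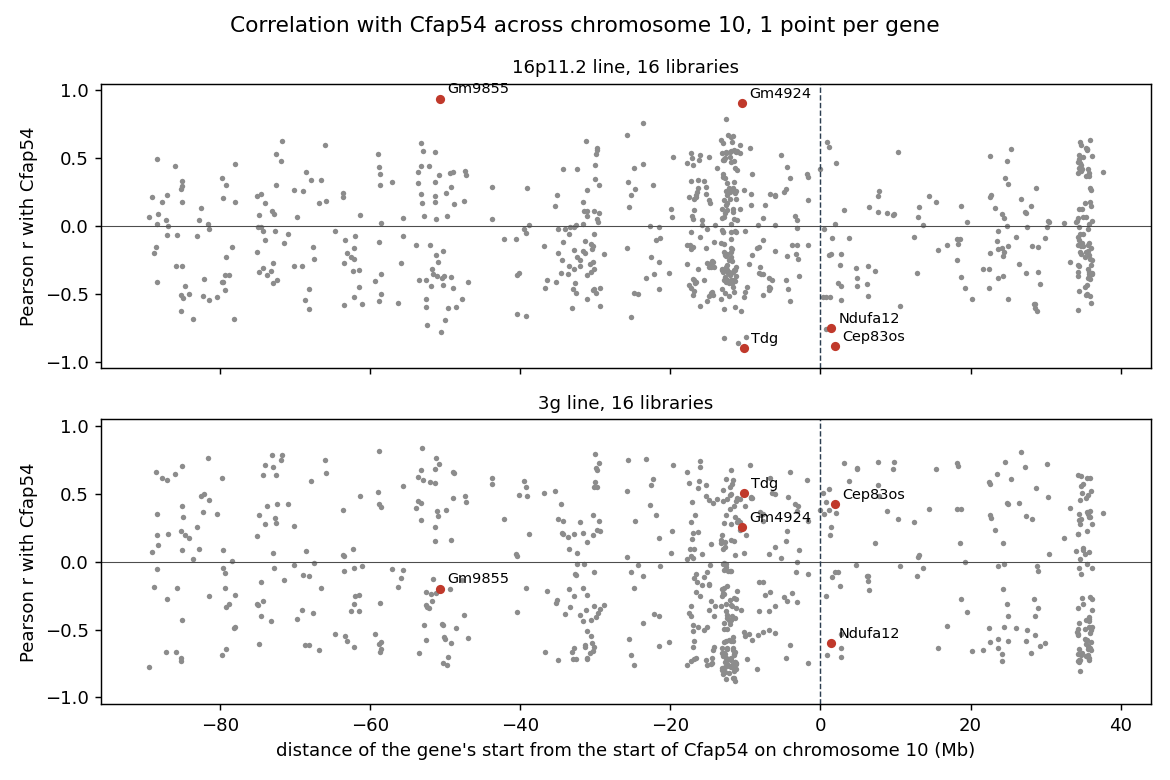
Pearson's r between the level of Cfap54 and that of each other gene of chromosome 10 (1 point a gene), against distance from Cfap54 (Mb), over the 16 RNA-seq libraries of each line. Points at 0.7 or more in size are denser within 15 Mb than beyond it in both lines. The shares are 3.91% and 0.871% in the 16p11.2 line and 17.4% and 10.9% in the 3g line.

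The partners of Cfap54 and Tdg were read from a list of 43 motile cilium genes and a list of 24 base excision repair and DNA demethylation genes. In each comparison of del/+ with wt edgeR called 0 of either list. In 16p11.2 females 1 gene of each list passed an unadjusted p of 0.05, with 0 by DESeq2. In 3g females 22 of 38 motile cilium genes passed it, with a median log2 difference of -0.37 beside -0.0012 over all genes, where 2098 of all 19024 genes passed it, and DESeq2 called 4 of the list, Ak7, Cfap126, Cfap44 and Dnah12. In the same comparison 5 of 5 defining ependymal markers had values below 0 (median -1.27), as had 9 of 9 choroid plexus markers tested (median -0.44), and 0 of either were called by edgeR. The defining ependymal markers also belong to the motile cilium list, so they are not a separate set. In 3g males 5 of 5 ependymal markers were lower in del/+ (median -0.12), but 7 of 8 choroid plexus markers were higher (median 0.53). The motile cilium list there had 20 genes higher and 20 lower (median 0.0072). In the 16p11.2 line 4 of 4 ependymal markers tested were higher in del/+ females (median 0.36). The same held for 4 of 4 in male lysate RNA (median 0.47), while in male RNA-seq 2 were higher and 3 lower (median -0.091). The part of these cells in the cilium values was not tested. In 3g lysate RNA, where Cfap54 was lower in del/+, 31 other motile cilium genes were tested, with 2 at an unadjusted p under 0.05 and 0 called by DESeq2, and their median log2 difference was -0.15 beside -0.0014 over all genes. Their summed level was 87.3 to 96.2 CPM in del/+ and 89.0 to 126 CPM in wt animals, and 4 defining ependymal markers tested had a median of -0.11. Their part in the result for Cfap54 was not tested.

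Genes around the members were not called by edgeR either in comparisons of del/+ with wt. Of the 93 genes tested within 1 Mb of Cfap54, Tdg, Gm9855, Gm15920 or Ndufa12 in 16p11.2 females, edgeR called 0. At an unadjusted p under 0.05 were 8 of them, beside 808 of all 18067 genes. DESeq2 called Gm4924, the gene near Tdg that was most like Cfap54 after Gm9855 in that line. In 16p11.2 males edgeR called 0 of 91, with 2 at an unadjusted p under 0.05 beside 1045 of all 17957 genes, and DESeq2 called 0. In 3g lysate RNA edgeR called 0 of 81, with 7 at an unadjusted p under 0.05 beside 707 of all 14378 genes, and DESeq2 called 0. In 3g females edgeR called 0 of 93, with 11 at an unadjusted p under 0.05 beside 2098 of all 19024 genes, and DESeq2 called Galnt17. Between the wt females of the lines edgeR called 55 of 92, where it called 59.9% of all genes.

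Between the wt females of the lines, where 59.9% of all genes were called, the shares of both lists called were near that background. As above, line and the separate making of the counts cannot be told apart here. Of 39 motile cilium genes 25 were called, all lower in the 16p11.2 line, with a median log2 difference of -0.66 beside -0.0068 over all genes, and the 5 defining ependymal markers had a median of -1.07. Cfap221, another protein of the central apparatus, was at -1.96, and Cfap46 and Cfap74, also of the central apparatus, were at -0.61 and -0.63. Of 24 base excision repair and demethylation genes 15 were called lower and 1 called higher, with a median of -0.38. Among the lower ones were Tet1 (-0.45), Tet2 (-0.74) and Tet3 (-0.51), which oxidize methylcytosine, and the glycosylase Mbd4 (-0.53), while the glycosylase Ung was at -0.12 (adjusted p = 0.486 by edgeR). In wt males edgeR called 0 of 37 motile cilium genes and 0 of 24 repair and demethylation genes. Of each list 10 genes were below 0.05 by edgeR before adjustment. DESeq2 called 7 genes of the first list and 6 of the second. Among all 18561 genes of that comparison, 6708 were below the same cut-off and 3502 were DESeq2 calls. Nothing particular to either list is therefore read from these counts.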

How the data were processed

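Striatal RNA was measured in 32 RNA-seq libraries and, in other males, lysate RNA and ribosome footprints in 13 libraries each. The values, deposited by the authors, are raw counts for each gene. RNA-seq reads were processed with bcbio-nextgen (the processing notes name HTSeq and mm10), and lysate and footprint reads with Bowtie2 on mm39, and versions are not given in the sources used here. The molecule label (polyA) and extraction text differ from the ribosomal RNA depletion of the paper. CPM use TMM library sizes over all libraries of an assay. Within each line, sex and assay, del/+ was compared with wt by edgeR 4.0.16's quasi-likelihood test (filterByExpr, TMM), adjusted over all genes by Benjamini-Hochberg and called under 0.05. Alternatives were DESeq2 1.42.0, RLE, no filter, a replicate block, all 16 libraries together and leaving out each library. Single genes were tested by exact permutation, 2-sided. Genes named beside the members are the 5 most like them by Pearson's r of log2 CPM among genes with a mean CPM of at least 1. Replicate numbers did not pair the samples. No 2 libraries were identical. Positions come from RefSeq (GRCm38). The edgeR steps were tested on simulated data. The members and gene lists were chosen with earlier results of these data known.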

Additional observations from a re-analysis of the deposited data

Results flagged for a closer look

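In 60 groups of 4 or more libraries, the highest or lowest library was compared with its nearest neighbour, a check that flags about 1 group in 20 by chance, and 5 groups were flagged. Of these, 4 concern 3g wt male 17, the library that lies nearer to the 16p11.2 line: its Gm15920 was at 16.7 CPM (next 6.54), its Gm44677 at 0 CPM (next 0.584), its share of Gm15920 among the reads of the copy and Ndufa12 at 22.2% (next 13.8%) and its share of Gm9855 among the reads of the copy and Tdg at 24.6% (next 14.8%). The last was the share of Gm15920 in 16p11.2 wt female 3, at 0.693% (next 0.535%), a step of a few reads.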

How the results depend on the processing

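Calls among the 5 genes changed in these cases. In 16p11.2 females, 5 were called, against 3 with the replicate number as a block (Gm44677 and Tdg were lost), 0 with all 16 libraries in 1 fit and 3 to 5 when each library was left out. The numbers share only a name, since same-numbered libraries did not deviate together. In 16p11.2 males 1 was called with DESeq2 and 1 with no filter, against 0. In 3g footprints 1 was called with no filter and 0 to 1 with 1 library left out. Between wt males 1 was called with DESeq2, 1 with no filter and 0 to 1 with 1 library left out, and for genotype by line in footprints 1 with no filter. At a 1.5-fold step in 16p11.2 RNA-seq, 3228 of 18870 genes tested had 2 or more levels with 0.5 counts added and 2405 with 3. The number of members with 2 or more levels was 5 with either. In 3g RNA-seq it was 1 at a 4-fold step, and 0 with 3 counts added and 3g wt male 17 left out. In the lysate tables it was 0 at a 4-fold step in both lines, and 0 with 3 counts added in 3g. In footprints it was 1 in 16p11.2 and 0 in 3g at a 4-fold step, and 1 with 3 counts added in 16p11.2. Signs turned for Gm15920 in 3g (0.0898) and Gm44677 in 3g (-0.31) without 3g wt male 17, and for Gm15920 in 3g females with no filter (-0.0046). Leaving out 1 library gave ranges that crossed 0 for Cfap54 between wt lysates (-0.18 to 0.36), Gm15920 in 16p11.2 males (-0.73 to 0.14), 3g females (-0.012 to 0.036) and 3g males (-0.49 to 0.17), Gm44677 in 3g males (-0.15 to 0.42), Gm9855 between wt males (-0.53 to 0.47) and in 3g males (-0.22 to 0.0024), and Tdg between wt males (-0.28 to 0.30), in 16p11.2 lysate (-0.32 to 0.012), 16p11.2 males (-0.52 to 0.17), 3g lysate (-0.067 to 0.29) and 3g males (-0.043 to 0.14). The causes were not tested. Footprint depth limits Cfap54 to 2 to 22 reads a library.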
